A study of Homo sapiens with 2 samples.

Results

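The clustered protocadherin genes were examined for MYBL2 binding in A673, a long-established line of Ewing sarcoma cells. They are the protein-coding genes of human chromosome 5 whose symbols begin with PCDHA, PCDHB or PCDHG, and they were taken by symbol from the gene annotation: 53 of 20098 protein-coding genes, namely 15 of the alpha cluster, 16 of the beta cluster and 22 of the gamma cluster. From the start of PCDHA1 to the end of the last gamma gene they span 727 kb (chr5:140165721-140892544, GRCh37), all on the plus strand. Each of 24 peaks that overlapped this interval was also taken, of 66954 peaks in all. The study immunoprecipitated chromatin with an anti-MYBL2 antibody and sequenced 1 MYBL2 ChIP library and 1 input library of the same wild-type cells (A673_WT in the labels, which name no treatment). There were no replicates, so no value has a replicate error and no difference was tested. The intervals given are exact 95% intervals of counting error only, and those of shares take genes or peaks as independent. The study's methods describe the antibody as directed at phosphorylated MYBL2, and A673 is 1 cell line that carries the EWSR1-FLI1 fusion.

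Clustered protocadherins are adhesion proteins of the cadherin superfamily that bind their own kind across cell contacts and give neurons an individual surface identity. Each alpha and gamma variable exon has its own promoter and is spliced to constant exons shared by its cluster, whereas each beta gene is a single coding exon. The C-type isoforms at the end of the alpha and gamma clusters are used more broadly than the others. In neurons the choice of promoter depends on DNA methylation, on CTCF and cohesin, and on a conserved sequence element with the core CGCT that lies shortly upstream of most of these starts. MYBL2 is a MYB family transcription factor best known for activating genes of mitosis.

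Most promoters of each cluster shared a word with that core, and these words are shown to describe the sequence near the starts. The window ran from 250 bases before to 50 bases after the main annotated start, 1 per gene. Over it, the 8-base word found in most members of a cluster was ATGTCGCT in alpha, in 10 of 15 promoters, against 0.184% of all protein-coding promoters. It was GTGGCGCT in beta, in 14 of 16 (0.95% of all), and GCCGCTGT in gamma, in 12 of 22 (1.16%). In alpha and beta the word that begins 1 base earlier, and so lacks the last base of CGCT, was as frequent. The words were picked for their frequency in these promoters, so the shares are a description. All 3 words hold CGCT, which was present on the sense strand in 51 of 53 members and in 66.2% of all protein-coding promoters. Their first bases lay at a median of -55 bp from the start in alpha, -65 bp in beta and -65 bp in gamma. In the plus-strand GRCh37 stretches that follow, 3 per cluster, the word is in capitals with 20 bases on either side.
PCDHA1 (chr5:140165663-140165710): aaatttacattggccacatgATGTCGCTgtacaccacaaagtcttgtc
PCDHA8 (chr5:140220707-140220754): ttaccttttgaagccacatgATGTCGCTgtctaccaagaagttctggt
PCDHA12 (chr5:140254821-140254868): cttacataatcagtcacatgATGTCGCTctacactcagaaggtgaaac
PCDHB2 (chr5:140474121-140474168): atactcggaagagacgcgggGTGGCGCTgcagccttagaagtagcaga
PCDHB3 (chr5:140479969-140480016): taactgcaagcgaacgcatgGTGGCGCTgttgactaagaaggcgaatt
PCDHB15 (chr5:140624874-140624921): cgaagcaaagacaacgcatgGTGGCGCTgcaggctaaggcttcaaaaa
PCDHGB1 (chr5:140729586-140729633): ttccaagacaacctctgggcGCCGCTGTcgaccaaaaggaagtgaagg
PCDHGA9 (chr5:140782275-140782322): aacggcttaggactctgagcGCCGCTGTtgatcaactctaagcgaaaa
PCDHGC3 (chr5:140855441-140855488): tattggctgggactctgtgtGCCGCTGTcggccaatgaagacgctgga

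Few of these promoters had an MYBL2 peak. A promoter was taken as 1000 bp either side of any annotated transcription start, and a peak was counted there if it overlapped by at least 1 base. By this measure 6 of 53 members had a promoter peak (11.3%, binomial interval 4.27 to 23%), against 59.4% of all protein-coding genes. The 6 were PCDHA11, PCDHA13 and PCDHAC2 in the alpha cluster (3 of 15), PCDHB2 in the beta cluster (1 of 16), and PCDHGA11 and PCDHGC3 in the gamma cluster (2 of 22). Of the 5 C-type genes 2 had one, PCDHAC2 and PCDHGC3, while PCDHAC1, PCDHGC4 and PCDHGC5 had none. Of the 48 other members 4 had one (8.33%, interval 2.32 to 20.0%). None of the 7 gamma B genes was among them (interval 0.0 to 41.0%), and 1 of the 12 gamma A genes was. The 3 clusters' intervals overlapped, from 4.33 to 48.1% in alpha, 0.158 to 30.2% in beta and 1.12 to 29.2% in gamma. A missing peak means that no signal passed the authors' threshold, not that there was none. Where the background was lowest, 11 fragments at a summit were enough for the list.

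**Figure D1:**
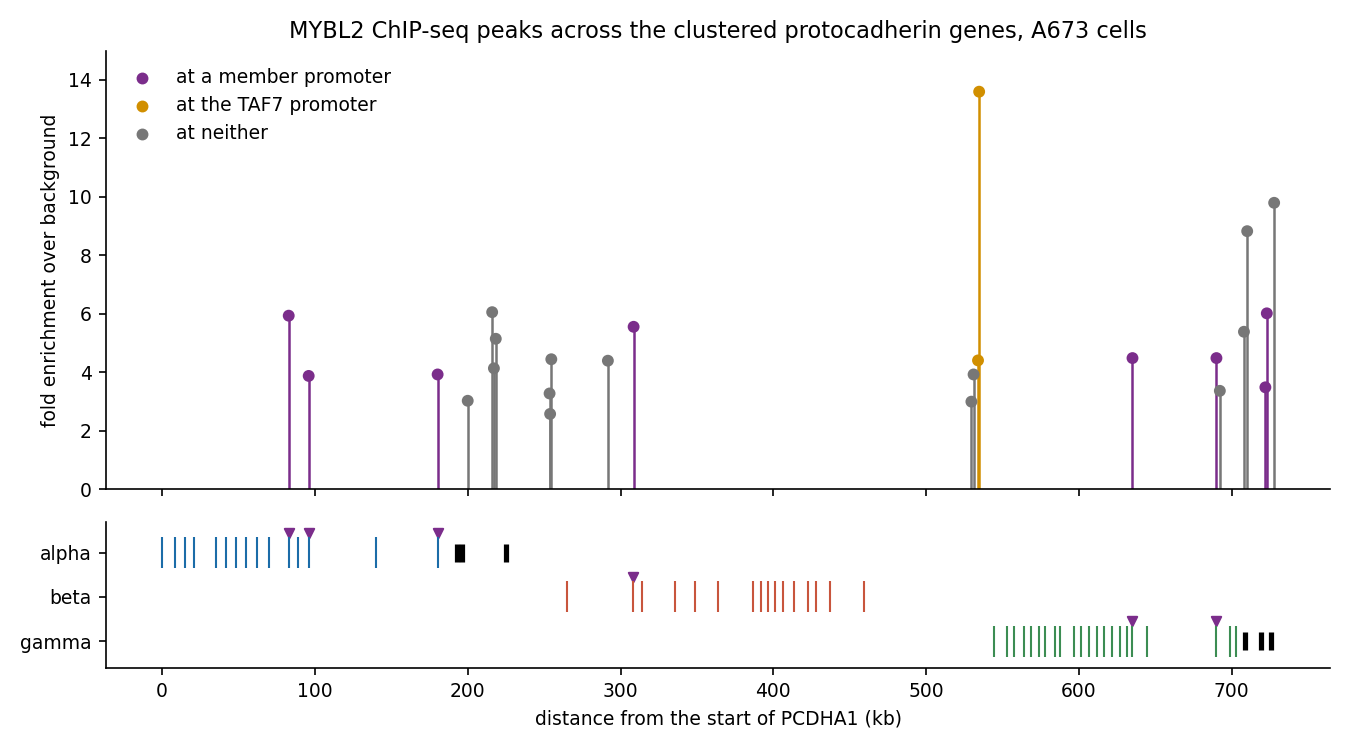
Upper panel, fold enrichment of each of the 24 peaks (linear scale) against the distance of its summit from the start of PCDHA1 in kb, coloured by whether the peak lies at a protocadherin promoter, at the TAF7 promoter or at neither. Lower panel, starts of the 53 genes by cluster, constant exons in black, and triangles over the 6 genes with a promoter peak; most peaks sit near the constant exons, between clusters or at TAF7, and the dense rows of variable starts are nearly free of them.

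The 6 genes are given in order along the chromosome. Fold enrichment is the authors' ratio of ChIP fragments at the summit to the local background, with a pseudocount (a small constant) added to each. The value therefore lies below the plain ratio: at PCDHGA11, 19 fragments over a background of 3.45 gave 4.49. The cut at a fold enrichment of at least 5, used below, applies to this value and not to the plain ratio. The pileup is the number of ChIP fragments at the summit, worked back from the fold enrichment and p. PCDHA11 (ENSG00000249158) had a peak at chr5:140248364-140248691 with a fold enrichment of 5.94 (interval 3.95 to 8.59) from 26 fragments, its summit 63 bp downstream of the start, in the first exon. PCDHA13 (ENSG00000239389) had one at chr5:140261594-140261805 with a fold enrichment of 3.88 (2.47 to 5.84) from 21 fragments, with the summit 35 bp upstream of the start. Both are variable alpha isoforms at the downstream end of their array, and PCDHA12, which starts between them, had no peak.

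PCDHAC2 (ENSG00000243232), the last C-type alpha isoform, had a peak at chr5:140345850-140346384 with a fold enrichment of 3.93 (2.41 to 6.08) from 18 fragments, its summit 15 bp upstream of the start. PCDHB2 (ENSG00000112852), a single-exon beta gene, had one at chr5:140474082-140474565 with a fold enrichment of 5.56 (3.70 to 8.05) from 26 fragments and the summit 96 bp into the gene. PCDHGA11 (ENSG00000253873), a variable gamma A isoform, had one at chr5:140800642-140800886 with a fold enrichment of 4.49 (2.79 to 6.89) from 19 fragments, 130 bp into the gene. These intervals overlapped one another, so the members could not be ranked by strength at this depth.

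PCDHGC3 (ENSG00000240184) is a C-type gamma isoform, and it was the member with more than 1 promoter peak. At its main start a peak at chr5:140855277-140856393 had a fold enrichment of 4.49 (2.79 to 6.89) from 19 fragments, with the summit 149 bp into the first exon. The other 2 peaks lay near another annotated start of this gene in the intron before the last constant exon. They had fold enrichments of 3.49 (2.15 to 5.42) at chr5:140887580-140887774 and of 6.02 (4.01 to 8.71) at chr5:140888280-140889130. The summit of the last one was 1005 bp from that start, so it counted through its edge only. All gamma isoforms share the constant exons around it, and this signal cannot be assigned to 1 of them.

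The bases before the starts of these 6 genes are printed to set them beside the promoters without a peak. They are 100 bases ending just before the main start, or for PCDHA11, where an alternative transcript covers this stretch, 30 bases around its CGCT, with each sense CGCT in capitals.
PCDHA11 (chr5:140248471-140248500): aggcgcaaggtgtCGCTctttacttggtgg
PCDHA13 (chr5:140261609-140261708): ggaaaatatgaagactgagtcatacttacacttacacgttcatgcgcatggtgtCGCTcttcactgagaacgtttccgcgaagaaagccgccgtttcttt
PCDHAC2 (chr5:140345961-140346060): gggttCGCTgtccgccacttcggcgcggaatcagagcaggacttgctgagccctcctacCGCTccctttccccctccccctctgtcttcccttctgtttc
PCDHB2 (chr5:140474099-140474198): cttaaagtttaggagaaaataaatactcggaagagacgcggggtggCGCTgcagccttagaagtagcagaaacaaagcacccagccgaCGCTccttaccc
PCDHGA11 (chr5:140800518-140800617): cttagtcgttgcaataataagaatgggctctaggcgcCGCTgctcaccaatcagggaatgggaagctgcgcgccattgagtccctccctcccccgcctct
PCDHGC3 (chr5:140855433-140855532): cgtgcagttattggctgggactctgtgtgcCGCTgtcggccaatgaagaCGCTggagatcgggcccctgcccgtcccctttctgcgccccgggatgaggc

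Each of the 6 stretches held CGCT, which for PCDHA11 was fixed by cutting the stretch around it. Over the wider window used above, CGCT was in 51 of 53 members and 66.2% of all protein-coding promoters, so it does not set these 6 apart. The CGCT of each stretch lay inside the peak for all but PCDHGA11, whose peak began downstream of it. The 8-base word of the cluster was in the windows of PCDHB2 and PCDHGC3, where the summit at the main start lay 150 and 217 bp downstream of the middle of the word. The alpha word was in none of the 3 alpha promoters with a peak and in 10 of the 12 without one. It was picked as the commonest of a cluster in which most promoters had no peak, and only exact matches counted. PCDHA11 and PCDHA13 held GTGTCGCT, 1 base from it, and PCDHGA11 held GCCGCTGC, 1 base from the gamma word. Of the promoters with their cluster's word, 0 of 10 in alpha, 1 of 14 in beta and 1 of 12 in gamma had a peak. The peaks at PCDHA11, PCDHA13 and PCDHAC2 each also overlapped the promoter of an annotated lncRNA gene (ENSG00000278946, ENSG00000278901 and ENSG00000279028), so the gene a peak belongs to cannot be told apart there.

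The promoter peaks were weak for promoter peaks. The best peak of the 6 members had a median fold enrichment of 5.03 (range 3.88 to 6.02), against 8.67 over the 11941 protein-coding genes with a promoter peak. The 6 best peaks were above 6.7 to 25.3% of those genes' best peaks. With the peak at the main start of PCDHGC3 in place of the one near its other start, the median of the 6 was 4.49. With a fold enrichment of at least 5 required, 3 members kept a promoter peak, PCDHA11, PCDHB2 and PCDHGC3, against 49.6% of protein-coding genes. PCDHGC3 kept one only through the peak near its other start, since the peak at its main start had 4.49.

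**Figure D2:**
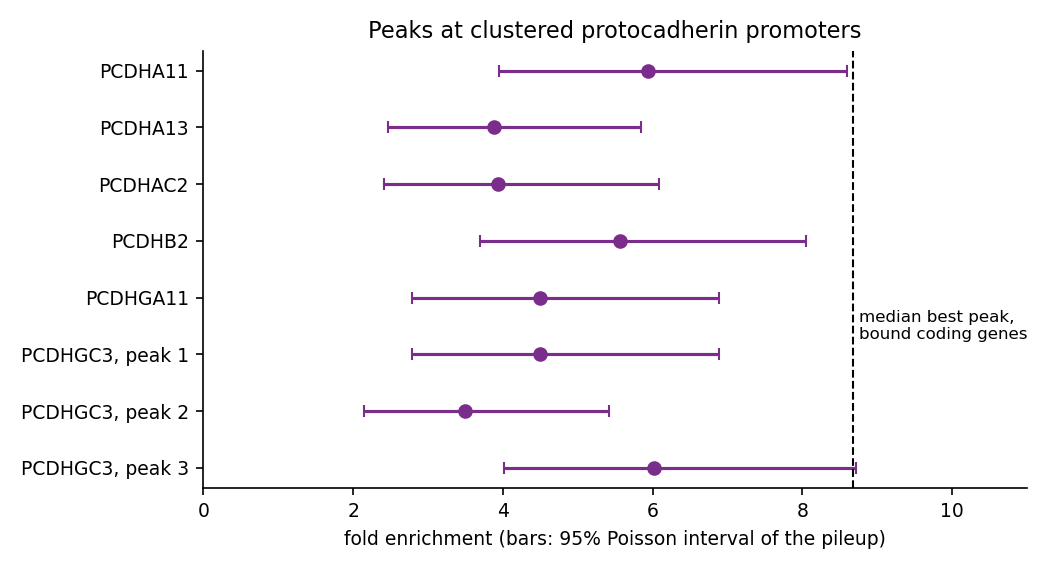
Fold enrichment (linear scale) of the 8 peaks at promoters of the 6 genes, with bars for the 95% Poisson interval of the pileup. The points lie between 3.49 and 6.02, and the dashed line marks the median best peak of protein-coding genes that had one, 8.67.

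Promoter sequence composition was compared next, since promoters rich in CpG dinucleotides had peaks more often than others. CpG observed/expected was measured over 500 bp either side of the main start. Of the protein-coding genes with a CpG-rich promoter (at least 0.6), 78.9% had a promoter peak, and of the remaining genes 21.7%. By this measure 35 of the 53 members were CpG-rich: 15 of 15 in alpha, 2 of 16 in beta and 18 of 22 in gamma. A promoter peak was present at 5 of these 35 (14.3%, interval 4.81 to 30.3%) and at 1 of the 18 others (5.56%, interval 0.141 to 27.3%), PCDHB2. The median ratio was 0.66 over the members and 0.72 over all protein-coding genes. In the bin from 0.6 to 0.8, which held 28 members, 4 members and 74.4% of all protein-coding genes had a peak, and from 0.8 to 1.0 it was 1 of 7 members and 83.2%. The G+C content differed more. It had a median of 44.4% over the members, ranging from 40.6 to 64.5%, against 61.2% over protein-coding genes, and the 5 C-type promoters were the highest of the members with 53.4 to 64.5%. PCDHAC1, at 63.0% G+C and a CpG ratio of 0.79, had no peak. DNA methylation was not measured in this series, and the part of base composition in the low count was not tested.

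**Figure D3:**
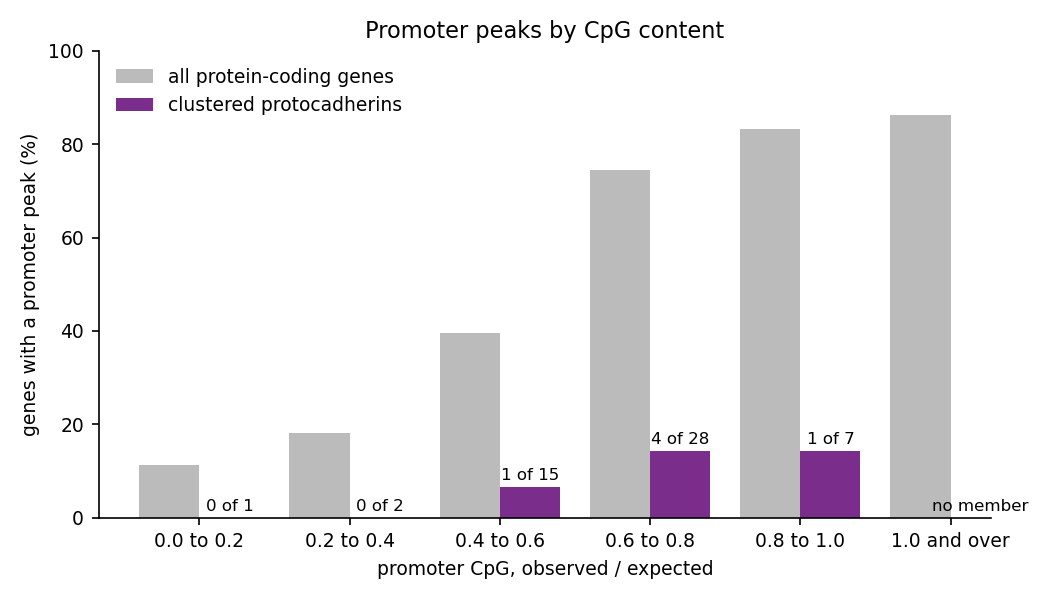
Share of genes with a promoter peak (%, from 0) by CpG observed/expected of the promoter, for all protein-coding genes (grey) and for the clustered protocadherins (purple, with counts). The grey bars climb from 11.4 to 86.3%, and the highest purple bars stand for 4 of 28 and 1 of 7 members.

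Reads from near-identical paralogs can be lost, because the authors kept only reads that mapped with confidence. Reads were 100 bases long, and in the interval 98.1% of 100-base stretches occurred once in GRCh37. All 100-base stretches of the promoter were unique for 36 members, and 5 of these 36 had a peak (13.9%, interval 4.67 to 29.5%). In 6 members under 80% of the stretches were unique: PCDHA7 (73.6%), PCDHA9 (79.5%), PCDHB8 (71.3%), PCDHB13 (71.3%), PCDHGB4 (79.3%) and PCDHGB5 (79.3%). They form pairs that share promoter sequence letter for letter, with 546 shared stretches between PCDHB8 and PCDHB13, 393 between PCDHGB4 and PCDHGB5 and 386 between PCDHA7 and PCDHA9. None of the 6 had a peak, and a peak there could have been missed.

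The peaks left long stretches of the clusters empty. From the peak at PCDHB2 to the next one, before TAF7, 221 kb were free of peaks, with the starts of 14 beta genes from PCDHB3 to PCDHB15. A stretch of 150 kb, which began upstream of the alpha cluster, held the 10 starts from PCDHA1 to PCDHA10. The last, of 99.8 kb, held 18 gamma starts from PCDHGA1 to PCDHGA11, the last of them just before the peak of PCDHGA11. Together these held 42 of the 53 members. Of 66794 distances between neighbouring peaks without assembly gaps, 3.72, 5.80 and 8.71% were longer than these in turn. Counted over main starts of protein-coding genes, 14 stretches held at least 18 starts, the gamma one included. The 12 stretches with the most starts ran through epidermal, keratin and olfactory receptor gene clusters among others, and the 1 with the most held 52. The median distance from a member's start to the nearest summit was 33.5 kb, and the farthest was 107 kb, at PCDHB12.

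Of the 24 peaks in the interval, 8 lay at a protocadherin promoter (33.3%, interval 15.6 to 55.3%), 2 at the promoter of TAF7 and 8 at a lncRNA promoter, with overlaps. Together 13 lay at a protein-coding or lncRNA promoter (54.2%, interval 32.8 to 74.4%), against 34.3% of all peaks, and 11 lay at none. In these 727 kb 57 protein-coding genes start, and the share of the interval that promoter windows cover was not measured. By summit, 5 were in exons of the members, 10 in their introns and 9 outside them. Fold enrichment ran from 2.58 to 13.6 with a median of 4.43 (3.79 over all peaks), and the pileup from 13 to 64 fragments. TAF7, which encodes a subunit of the general transcription factor TFIID and lies between the beta and gamma clusters, had the highest one, at chr5:140699926-140700848 (fold enrichment 13.6, interval 10.5 to 17.3, from 64 fragments). SLC25A2, a solute carrier gene in the same gap, had no promoter peak. Among the genes around the clusters, 18 of the 23 protein-coding genes that start in the 1 Mb upstream had a promoter peak (78.3%, interval 56.3 to 92.5%) and 10 of the 12 in the 1 Mb downstream (83.3%, interval 51.6 to 97.9%).

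The next strongest peaks were at the end of the gamma cluster, over exons that every gamma isoform shares. A peak at chr5:140891705-140894160 had a fold enrichment of 9.80 (7.16 to 13.1) and reached from the last gamma constant exon past the end of the last gene, where its summit lay. A peak at chr5:140874369-140876258 had a fold enrichment of 8.83 (6.58 to 11.6) from 49 fragments and covered the first gamma constant exon, with the summit in the intron behind it. A weaker peak (fold enrichment 5.39, 3.50 to 7.98) lay just before it. In the alpha cluster 4 peaks lay in the intron between the last 2 constant exons. One stood apart with a fold enrichment of 3.03 (1.89 to 4.65), and 3 were close neighbours, the first of them at chr5:140381347-140381866 with a fold enrichment of 6.06 (4.18 to 8.52) and the others at 4.14 and 5.15. That intron is known to hold a nuclease-hypersensitive site of the alpha cluster, and the gap between the alpha and beta clusters holds the HS5-1 enhancer of the alpha genes. In the gap 3 neighbouring peaks spanned chr5:140419094-140420697, past the last alpha constant exon, with fold enrichments of 3.28, 2.58 and 4.45. The last 2 of them overlapped the promoter of an annotated lncRNA gene (ENSG00000288892). The positions of the hypersensitive site and of the HS5-1 enhancer were not in the annotation used, so an overlap with them was not tested.

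Counted by summit, the interval held 23 peaks, or 31.6 per Mb (Poisson interval 20.1 to 47.5), against 17.7 per Mb over chromosome 5 and 23.6 per Mb over all chromosomes without assembly gaps. The flanks of 1 Mb held 31.0 per Mb upstream and 55.0 per Mb downstream. Within the interval the gap between alpha and beta had 3 peaks in 39.0 kb (76.9 per Mb, interval 15.9 to 225) and the gamma C-type and constant part 6 in 79.8 kb (75.2 per Mb, 27.6 to 164). The gap between beta and gamma had 4 (49.3 per Mb, 13.4 to 126). Of the 7 parts, the interval of the gamma C-type and constant part alone excluded the density over all chromosomes. That interval included the densities of both flanks. The gamma variable part had 1 peak in 103 kb (9.74 per Mb, 0.247 to 54.3), and the beta cluster 2 in 198 kb (10.1 per Mb, 1.22 to 36.5). The alpha variable part had 2 (20.3 per Mb) and the alpha C-type and constant part 5 (39.2 per Mb). The intervals of the parts overlapped widely, and the difference between gamma parts rests on 7 peaks.

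**Figure D4:**
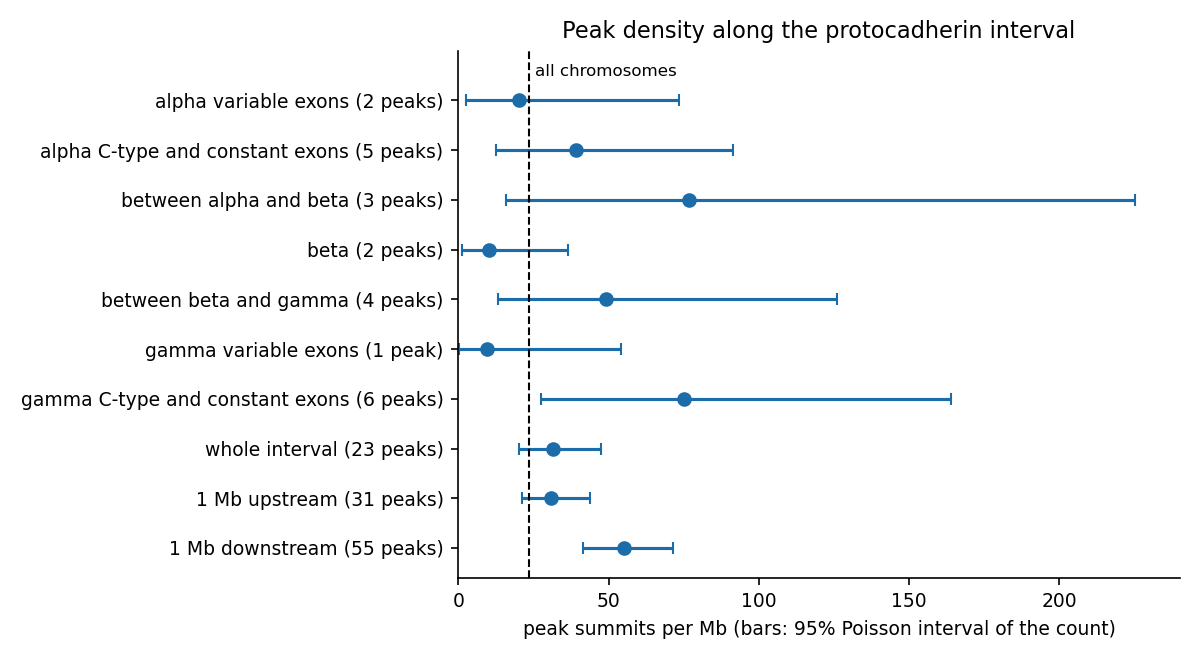
Peak summits per Mb (linear scale) in consecutive parts of the interval, in the whole interval and in the flanks of 1 Mb, with bars for the 95% Poisson interval of the count. The dashed line is the density over all chromosomes, 23.6 per Mb; the beta cluster and the alpha and gamma variable parts lie below it, and the other parts, the whole interval and both flanks above it.

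Short sequence words at the summits were searched on both strands within 50 bp. The MYB word AACNG was present at 12 of the 24 summits (interval 29.1 to 70.9%), against 44.1% of all summits. Of the 8 peaks at protocadherin promoters 5 had it, against 40.5% of peaks at protein-coding promoters. The CHR word TTTGAA, found in promoters of cell cycle genes, was at 2 (8.33%, against 9.28%). CCAAT, the NF-Y word, was at 7 (29.2%, interval 12.6 to 51.1%, against 13% of all summits). The protocadherin promoter peaks held CHR at 1 of 8 and CCAAT at 0 of 8, against 5.75 and 10.2% of peaks at protein-coding promoters. The ETS word CCGGAAGT was at 0 of 24, which allows a share of up to 14.2% by the binomial interval, against 0.705% of all summits. CTCF core words, taken as AGGGGGC with its variants AGGTGGC and also AGATGGC together with AGAGGGC, were at 2 (8.33%, interval 1.03 to 27.0%), against 7.26% of all summits, and at 0 of the 8 promoter peaks. For each of these words the interval's binomial bounds included the share over all summits, narrowly so for CCAAT. Both summits with a CTCF core were away from promoters of the clusters, 1 in the alpha constant intron and 1 in the gap before PCDHB1, and the 101 bases around them follow with the core in capitals, on the plus strand of GRCh37.
alpha constant intron (chr5:140382827-140382927): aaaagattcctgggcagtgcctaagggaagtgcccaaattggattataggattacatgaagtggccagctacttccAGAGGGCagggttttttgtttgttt
gap between alpha and beta (chr5:140419611-140419711): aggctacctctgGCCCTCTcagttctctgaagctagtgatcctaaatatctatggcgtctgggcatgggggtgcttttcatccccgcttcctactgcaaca

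The 101 bases around 2 further summits are printed with the MYB word in capitals. PCDHA13 stands for a promoter peak, and the peak behind the first gamma constant exon is the strongest one with its summit inside these genes.
PCDHA13 (chr5:140261624-140261724): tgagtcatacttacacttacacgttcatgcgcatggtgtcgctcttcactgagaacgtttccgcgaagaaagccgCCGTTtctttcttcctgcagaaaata
gamma constant intron (chr5:140875754-140875854): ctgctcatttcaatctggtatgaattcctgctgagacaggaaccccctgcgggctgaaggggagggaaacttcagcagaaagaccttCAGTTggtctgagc

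Related genes elsewhere were listed for comparison. Of 12 non-clustered protocadherins, which encode proteins of the same family from separate loci, 7 had a promoter peak (58.3%, interval 27.7 to 84.8%), with a median best fold enrichment of 9.51. PCDH17 was the highest with 14.6 (11.4 to 18.4) and PCDH20 the lowest with 3.59 (2.11 to 5.78), and PCDH1, PCDH8, PCDH11X, PCDH15 and PCDH19 had none. Among gene families that also lie in arrays, 25 of 39 HOX genes (64.1%, interval 47.2 to 78.8%) and 170 of 249 zinc finger genes of chromosome 19 (68.3%, interval 62.1 to 74.0%) had a promoter peak, several HOX genes through a shared peak. The highest HOX peak, with a fold enrichment of 18.2, was shared by HOXD3, HOXD8 and HOXD9, and the lowest best peak was that of HOXB9 with 3.03. Olfactory receptor genes, which are silent in most tissues, had 3 of 415 (0.723%, interval 0.149 to 2.1%). The binomial interval of the clustered protocadherins lay below those of the HOX and zinc finger genes and above that of the olfactory receptors. These intervals take each gene as independent, which genes with a shared peak are not, and the differences were not tested. CpG content differed between these lists: 4 of the 415 olfactory receptor promoters were CpG-rich, against 35 of 53 for the clustered protocadherins, 33 of 39 for HOX and 197 of 249 for the zinc finger genes. Within CpG-rich promoters 1 of 4 olfactory receptors, 5 of 35 clustered protocadherins, 3 of 7 non-clustered protocadherins, 20 of 33 HOX genes and 154 of 197 zinc finger genes had a peak.

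**Figure D5:**
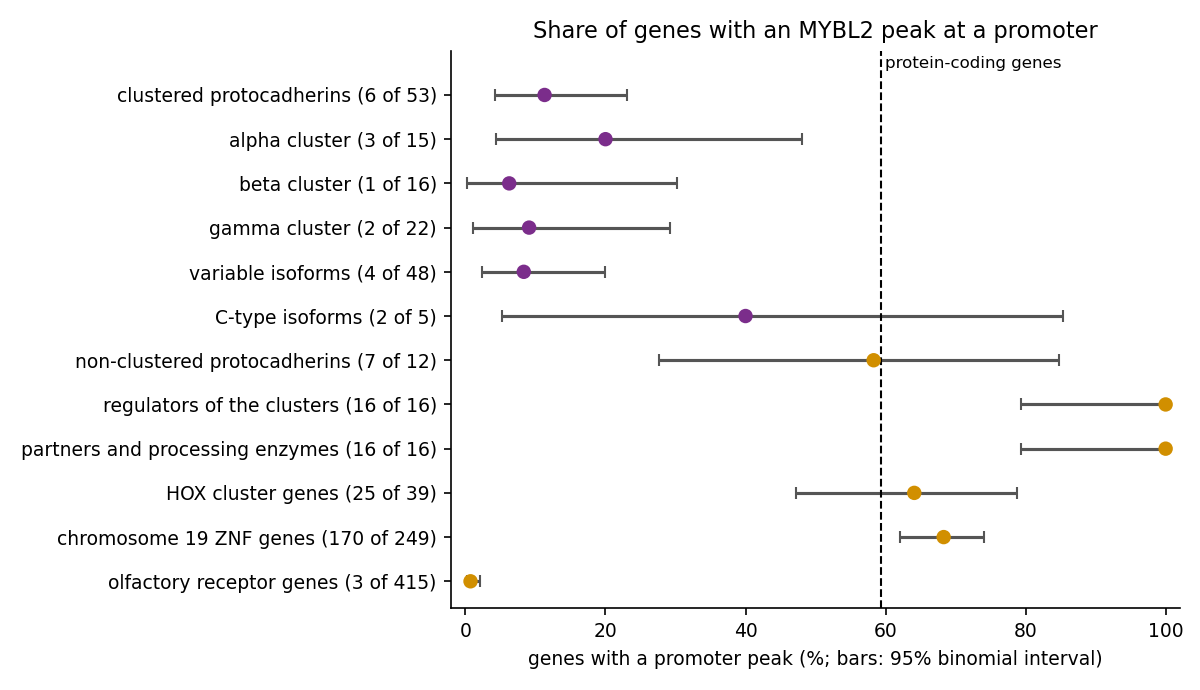
Share of genes with a promoter peak (%) in the clustered protocadherins and their groups (purple) and in the other lists (orange), with bars for the exact 95% binomial interval and counts in the labels. The dashed line is the share over protein-coding genes, 59.4%. The protocadherins as a whole and each cluster lie below it, as do the C-type isoforms, whose interval (5.27 to 85.3%) spans it. The chosen lists of regulators and of partners and processing enzymes lie at 100%.

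In both chosen lists, regulators of the clusters and partners or processing enzymes of their proteins, every gene had a promoter peak. This held for 16 of 16 regulators (interval 79.4 to 100%), with a median best fold enrichment of 12.9. They include CTCF (16.2, 12.7 to 20.3), the cohesin subunits SMC1A (28.7), SMC3 (14.8), RAD21 (8.54), STAG1 (13.7) and STAG2 (7.17), and the DNA methyltransferases DNMT1 (13), DNMT3A (6.96) and DNMT3B (10.8). MAU2, a subunit of the cohesin loader, was the highest with 49.2 (42.9 to 56.1) and REST, the repressor of neuronal genes, the lowest with 4.72 (2.97 to 7.16). It also held for 16 of 16 partners and processing enzymes (median 7.91), from ABI1, a subunit of the WAVE actin regulator, with 18 (14.3 to 22.3) to PTK2B, a focal adhesion kinase, with 4.38 (3.04 to 6.13). Of the regulators 15 and of the partners 14 had a CpG-rich promoter, a class in which 78.9% of protein-coding genes had a peak.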

How the data were processed

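MYBL2 ChIP and input of A673 cells were sequenced by the authors with 100 bp single-end reads. Per the labels, reads were aligned to hg19 with Bowtie2 2.1.10 and peaks called with MACS2 2.0.10, and per the study's reporting summary reads of low mapping quality were removed. The deposited peak list gives fold enrichment as a linear ratio, −log10 p-values and −log10 q-values, a score derived from q, and the summit position, all made by the authors with the input as control. The largest q kept was 0.0493. What further cleaning of the list removed is not given in the sources used here.

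A whole-number pileup that solves the deposited fold enrichment and p was recovered for 66954 of 66954 peaks, and its exact Poisson interval gives that of the fold enrichment. The background had a floor of 3.45 fragments. Genes came from GENCODE release 44 lifted to GRCh37, whose chromosome lengths fit the list (0 peaks beyond an end). Scripts used Python 3.11.15, numpy 2.4.6, pandas 2.3.3 and scipy 1.17.1, and overlaps, recovery and uniqueness were tested on simulated data. Named genes were every member with a promoter peak, the 5 C-type genes, the 5 strongest peaks of the interval, and the highest, lowest and peak-free genes of the comparison lists (for the zinc finger and olfactory receptor arrays counts only, and for HOX genes the peak-free ones as a count). Other genes named in the text were chosen after their values were seen. The members, lists and alternatives were chosen with earlier results of these data known. No input values were used beyond those in the peak list.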

Additional observations from a re-analysis of the deposited data

How the results depend on the processing

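The 6 genes with a promoter peak remained the same 6 with a −log10 q of at least 5, with a promoter of 500 bp on each side or one from 5000 bp before to 1000 bp after the start, with the summit or at least 50% of the peak inside the window, and with the outermost start alone. Requiring a fold enrichment of at least 5 left 3 members (1 in each cluster, of which the gamma one, PCDHGC3, is the 1 C-type gene left), 11 peaks per Mb in the interval (5.67 over all chromosomes) and 0.0% of 9 summits with a CTCF core. PCDHGC3 stayed only through the peak near its other start, which cannot be assigned to 1 gamma isoform. The beta cluster alone held 10.1 peaks per Mb. With the outermost start alone or the summit in the window, the best peak of PCDHGC3 was the one at its main start, with 4.49. No paired analysis was possible because the ChIP and the input were sequenced as 1 library each. The recovered pileups, from 13 to 64 fragments in the interval, limit comparisons between peaks, and a member without a listed peak has no value of its own.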
